A study of Mus musculus with 4 samples.

Results

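The regions described are the wide stretches of histone H4 lysine 16 acetylation (H4K16ac) that were called in neural progenitor cells (NPC) and not in the embryonic stem cells (ESC) from which these came. A member is an NPC island on chromosomes 1 to 19 that is at least 16 kb wide, has fewer than 120 reads per kb and shares no base with any ESC island. The rule was met by 1295 of the 48170 NPC islands on these chromosomes. The members were thus selected on 3 measured values, their width, their density and the absence of an ESC island, which are given as descriptions and not as findings. An island is a run of windows in which the chromatin immunoprecipitation (ChIP) library held more reads than the background, as called by SICER, and density means reads per kb of island.

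The study has 4 libraries from mouse 46c cells, an ES cell line with green fluorescent protein (GFP) placed under the control of Sox1, a gene of early neural progenitors. The NPC had been differentiated for 5 days with NB27 and Neuro2 supplements and sorted for GFP, and the ESC were undifferentiated. Each cell type has 1 H4K16ac ChIP library and 1 input library of chromatin cut with micrococcal nuclease (MNase), and both ChIP libraries were made with the same Millipore antibody. All cells derive from 1 reporter line. The deposited lists hold 48278 islands with 24386370 reads in NPC and 40570 islands with 17935144 reads in ESC, and reads outside islands are not in them. Every difference between the cell types rests on 1 library each, so no test across samples was possible and no p-value is given. The GFP sort was not checked against marker genes, since genes and sequences of the regions were not analysed here. All positions are on mm9.

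H4K16ac is laid down mainly by the acetyltransferase MOF (KAT8), which works within the MSL and NSL complexes. Acetylation takes away the positive charge of a lysine in the H4 tail that contacts neighbouring nucleosomes, and nucleosome arrays that carry it fold less tightly in vitro. In Drosophila the mark coats the male X chromosome, where it forms part of dosage compensation, and in mammals it is found over active genes and enhancers.

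Wide NPC-only islands made up a small part of the NPC list by number and a larger part by reads. Of all NPC islands on chromosomes 1 to 19, 31481 (65.4%) shared no base with an ESC island. Of the 3363 NPC islands of at least 16 kb, 1301 (38.7%) shared none, and 1295 (38.5%) were also below the density limit. The members were 2.69% of NPC islands but held 9.81% of NPC island reads (exact 95% interval 9.80% to 9.82%, counting error only), which came to 2387689 reads. They covered 28.8 Mb of the 306 Mb in NPC islands, or 9.41%, which is close to their share of reads. The width minimum of the rule makes the share by number the lower one, so nothing is read from that contrast. The share without an ESC base was 68.1% among NPC islands below 2 kb, 72.5% at 2 to 4 kb, 59.1% at 8 to 12 kb, 44.4% at 16 to 24 kb and 28.6% from 24 kb upward. The rule itself uses this property, so nothing is read from these shares.

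The members were mostly near the lower limit of width. Their median width was 20 kb, with quartiles of 17.6 and 24.2 kb, and the widest reached 72.4 kb. Widths of at least 24 kb were found in 342 members, of at least 32 kb in 113 and of at least 50 kb in 15. Reads per member ran from 1016 to 7679, with a median of 1639. Density had a narrow spread, from 59.7 to 119.9 reads per kb, with a median of 81.9 and quartiles of 75.9 and 87.5. Wider members were somewhat denser: the median was 80.4 reads per kb in the 638 members of 16 to 20 kb and 88.6 in the 113 of at least 32 kb. Across the 1295 members, which share 1 library, width and density had a Spearman rho of 0.23.

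The thresholds fall in a continuous range. At exactly 16 kb there were 50 NPC-only islands with a median of 79.0 reads per kb, and at 15.8 kb there were 39 with a median of 76.5. Among those at 16 kb the most reads, 1529, were at positions 107891201 to 107907200 on chromosome 8, followed by 77671601 to 77687600 on chromosome 8 (1476 reads) and 151728401 to 151744400 on chromosome 2 (1448 reads). Among those at 15.8 kb the most, 1544, were at 3989401 to 4005200 on chromosome 14, followed by 24531601 to 24547400 on chromosome 2 (1510 reads) and 72849401 to 72865200 on chromosome 14 (1485 reads). The densest member, at 6533201 to 6549400 on chromosome 17, had 1942 reads in 16.2 kb, or 119.9 reads per kb (exact Poisson 95% interval 115 to 125). The island just outside that limit was also on chromosome 17, at 27491601 to 27565000, with 8810 reads in 73.4 kb at 120.03 reads per kb. The density limit removed 6 islands, whose densities reached 245 reads per kb. One of them lay 7.6 kb from the densest member, at 6499201 to 6525600, with 126 reads per kb, and another, with 125 reads per kb, was at 173467601 to 173501200 on chromosome 1. For the third condition, 2 islands of at least 16 kb shared only 200 bp with an ESC island, at 151735401 to 151771400 on chromosome 4 and at 152596401 to 152621200 on chromosome 2. The next, at 87528201 to 87560400 on chromosome 3, shared 400 bp.

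Wide NPC islands with only a small part in ESC islands were few beside those with none. Besides the 1301 with no ESC base, 97 (2.88%) had at most 10% of their bases in ESC islands, and 784 (23.3%) had more than 90%. Between those ends, 186 had 10% to 25%, 304 had 25% to 50%, 384 had 50% to 75% and 307 had 75% to 90%. Wide NPC islands were thus more numerous at both ends of the scale than in any of the classes given between them. The classes differ in width, so the counts between the ends cannot be compared directly.

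The widest members lay on chromosomes 16, 7, 15 and 2. The one on chromosome 16, positions 18130401 to 18202800, was both the widest, at 72.4 kb, and the one with most reads, 7679. Its density was 106 reads per kb (exact Poisson interval 104 to 108), and the nearest ESC island was 9.6 kb away. Next came 139815401 to 139887400 on chromosome 7, with 6498 reads in 72 kb, and 105196601 to 105261800 on the same chromosome, with 6015 reads in 65.2 kb. The surroundings of the pair on chromosome 7 differed. In the 100 kb on either side, NPC islands covered 64.2% and ESC islands 26.9% around the first, against 29.8% and 6.0% around the second. The fourth, at 78482401 to 78541000 on chromosome 15, had 5434 reads in 58.6 kb and flanks covered to 66.3% in NPC and 8.6% in ESC. The fifth by width was on chromosome 2, at 166938601 to 166997000, with 5172 reads, and the fifth by reads on chromosome 1, at 134452201 to 134510200, with 5324 reads in 58 kb. These widest members had 88.6 to 106 reads per kb, above the member median.

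Apart from the densest member, the highest densities were 109.6 to 114 reads per kb. The member at 31034201 to 31072400 on chromosome 17 had 4358 reads at 114 reads per kb (111 to 118) and lay 86.6 kb from the nearest ESC island. The others were at 91078201 to 91100800 on chromosome 8, 35496401 to 35520400 on chromosome 16 and 46921801 to 46940600 on chromosome 9, whose intervals overlapped one another. At the other end, the least dense member had 59.7 reads per kb (56.1 to 63.5), with 1027 reads at 51074001 to 51091200 on chromosome 7. The next were at 69183801 to 69200200 on chromosome 9, 9171401 to 9188200 on chromosome 14, 39091601 to 39110400 on chromosome 18 and 93318801 to 93336400 on chromosome 15, with 62.0 to 63.5 reads per kb. These 5 least dense members were at most 18.8 kb wide.

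Members were slightly less dense than NPC islands of the same width that shared bases with an ESC island. The median was 81.9 reads per kb in members and 85.7 in the 2062 shared islands of at least 16 kb, whose quartiles were 79.0 and 93.3. Restricting the shared islands to those below 120 reads per kb, as the rule does for members, gave 2046 islands with a median of 85.6. Of the members, 896 (69.2%) lay below the median of the shared islands. At 16 to 20 kb the median was 80.4 in members and 82.2 in shared islands, and at 20 to 24 kb it was 81.1 in members and 84.9 in shared islands. At 24 to 32 kb it was 82.7 in members and 86.6 in shared islands, and from 32 kb it was 88.6 in members and 91.4 in shared islands. The members thus had the lower median in each class of width, while the ranges between the quartiles overlapped. The 4720 NPC-only islands of 8 to 16 kb with the same density limit had a median of 75.6 reads per kb.

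**Figure D1:**
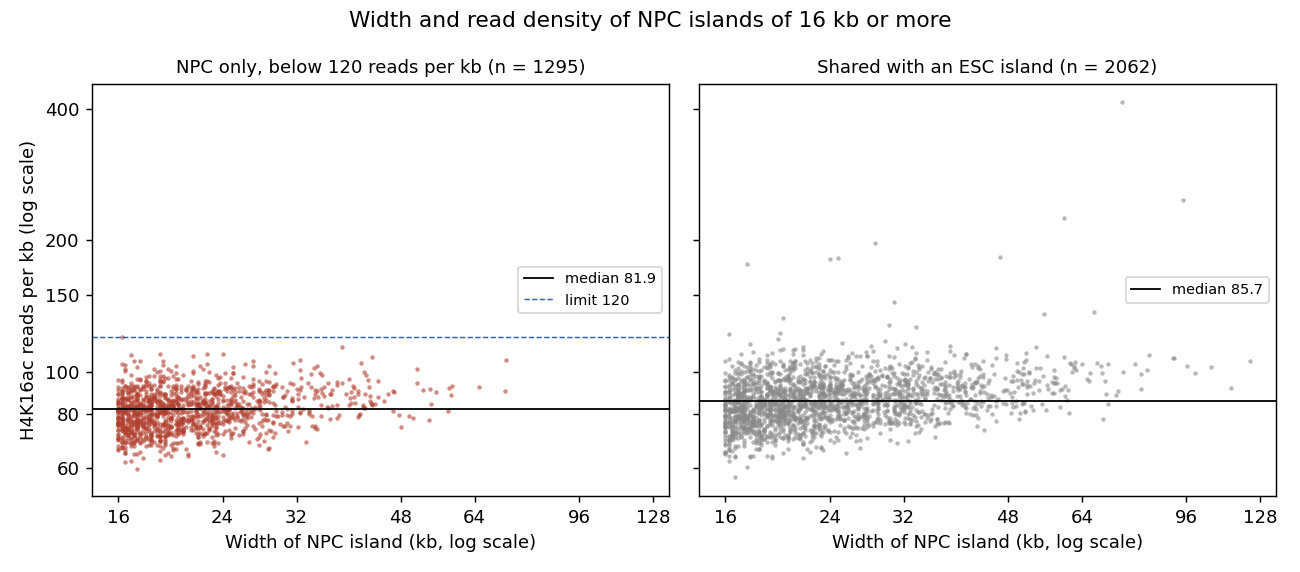
Density in reads per kb against width in kb, both on log scales, for the 1295 wide NPC-only islands (left) and the 2062 NPC islands of at least 16 kb that share bases with an ESC island (right), 1 point per island. The medians (solid lines) are 81.9 reads per kb on the left and 85.7 on the right, and the dashed line is the limit of 120 reads per kb that the rule sets for the left panel.

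Scaled by island reads, members and shared wide NPC islands both had a lower median density than wide ESC islands. For members it was close to the lowest among wide ESC islands. Unscaled, it was 81.9 reads per kb, near the median of wide ESC islands. The 1687 ESC islands of at least 16 kb had a median of 84.1 reads per kb and a minimum of 57.3. Over ESC islands of all widths the minimum was 45.7 reads per kb and the 5th percentile 63.4. The NPC list holds 1.36 times the island reads of the ESC list. Island reads include those of the members and are not library depth. Per 1000000 island reads, the median density was 3.36 reads per kb in members, 3.51 in shared wide NPC islands and 4.69 in wide ESC islands. Divided by 1.36, the median member density came to 60.2 reads per kb on the scale of the ESC list. The divisor lowers every NPC island alike, so a low scaled density is not particular to members. Of the 1687 wide ESC islands, 2 were at or below that. On that scale 434 members (33.5%) lay below the least dense wide ESC island, against 435 shared wide NPC islands (21.1%). The depth of the libraries and their background are unknown, and how far they set which stretches were called in ESC was not tested. The lists hold no reads outside islands. Whether a stretch without an ESC island carries the mark in ESC cannot be told from them.

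Most members had an ESC island nearby. The median distance to the nearest one was 15.8 kb, with quartiles of 5.5 and 38 kb. Fewer than 1 kb separated 69 members from an ESC island, 411 lay at 1 to 10 kb, 585 at 10 to 50 kb, 161 at 50 to 100 kb and 69 at 100 kb or more. An ESC island lay within 10 kb on at least 1 side of 484 members (37.4%) and on both sides of 90 (6.95%). NPC-only islands of 8 to 16 kb had a median distance of 14.6 kb, and 6.12% of them, against 5.33% of members, were at least 100 kb away. Distances of both kinds of NPC-only island thus spread over much the same range. The ESC island nearest to a member had a median width of 3.8 kb and a median density of 88.0 reads per kb. For NPC-only islands of 8 to 16 kb these medians were 3.4 kb and 88.1 reads per kb, and over all ESC islands 3 kb and 92.5 reads per kb. ESC islands of at most 2 kb with at least 120 reads per kb were nearest to 8.11% of members, against 9.26% of NPC-only islands of 8 to 16 kb, and made up 17.5% of ESC islands.

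The members farthest from ESC islands were less dense than those close by. Median density was 85.8 reads per kb below 1 kb, 82.4 at 1 to 10 kb, 81.5 at 10 to 50 kb, 80.3 at 50 to 100 kb and 77.3 from 100 kb. The rho of distance and density over the 1295 members was -0.14, and that of NPC cover of the flanks and density was 0.29. Median width was 21.8 kb below 1 kb and 19 kb from 100 kb, with 20 to 20.4 kb in the classes between. Wider members were denser, and the part of width in the order by distance was not tested. The farthest 3 lay side by side on chromosome 6, from 114191401 to 114217800, 114233801 to 114269000 and 114277001 to 114293800, at 375, 324 and 299 kb from any ESC island. They had 2171, 2781 and 1371 reads at 79.0 to 82.2 reads per kb. The other 2 of the farthest 5 were neighbours on chromosome 8, at 121588601 to 121607400 and 121526001 to 121550800, with 71.2 and 72.3 reads per kb at 260 and 237 kb. At the near end, 2 members met an ESC island end to end without sharing a base. The wider of them, at 133059401 to 133103400 on chromosome 1, had 3851 reads in 44 kb, and the other, at 62341401 to 62358200 on chromosome 4, had 1470 reads in 16.8 kb. Only 0.2 kb lay between an ESC island and the members at 106532001 to 106555000 on chromosome 7 and at 92632401 to 92655400 on chromosome 16, which were both 23 kb wide and had 84.9 and 68.6 reads per kb. The fifth, at 154493201 to 154520800 on chromosome 4, was 0.4 kb from an ESC island on one side and 1 kb on the other.

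The flanks were covered by NPC islands to about the same extent around members and shared wide islands. ESC islands covered less around members than around shared wide islands, but as much as around all NPC islands. The rule did not use the flanks, but an ESC island that overlaps a shared island can reach past its edge and none can do so for a member, so the ESC values are in part set by the rule. In the 100 kb on each side, NPC islands covered a median of 45.5% around members, 36.5% around NPC-only islands of 8 to 16 kb and 47.5% around shared wide islands. ESC islands covered 11.9% around members, 11.2% around the narrower NPC-only islands and 29.6% around shared wide islands. Over all NPC islands the medians were 26.1% for NPC cover and 11.9% for ESC cover. The median excess of NPC over ESC cover was 28.2 percentage points around members, 20.9 around the narrower NPC-only islands and 13.8 around shared wide islands. NPC cover exceeded ESC cover in the flanks of 1229 members (94.9%), 90.2% of the narrower NPC-only islands and 79.9% of the shared ones. No ESC base lay within 100 kb of 69 members (5.33%), and this was so for 7 of the 2062 shared islands. With 1 library per cell type these differences have no replicate check.

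By distance from the edge, the contrast in ESC cover was largest next to the island and was still present at 200 kb. In the first 10 kb, ESC islands covered a mean of 8.9% around members, 9.6% around NPC-only islands of 8 to 16 kb and 38.6% around shared wide islands. At 190 to 200 kb the mean was 18.4% around members, 16.8% around the narrower NPC-only islands and 25.1% around shared wide islands. NPC cover at 10 to 20 kb was 51.8% around members, 41.2% around the narrower NPC-only islands and 54.1% around shared wide islands. At 190 to 200 kb it was 40.9% around members and 41.1% around shared wide islands.

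**Figure D2:**
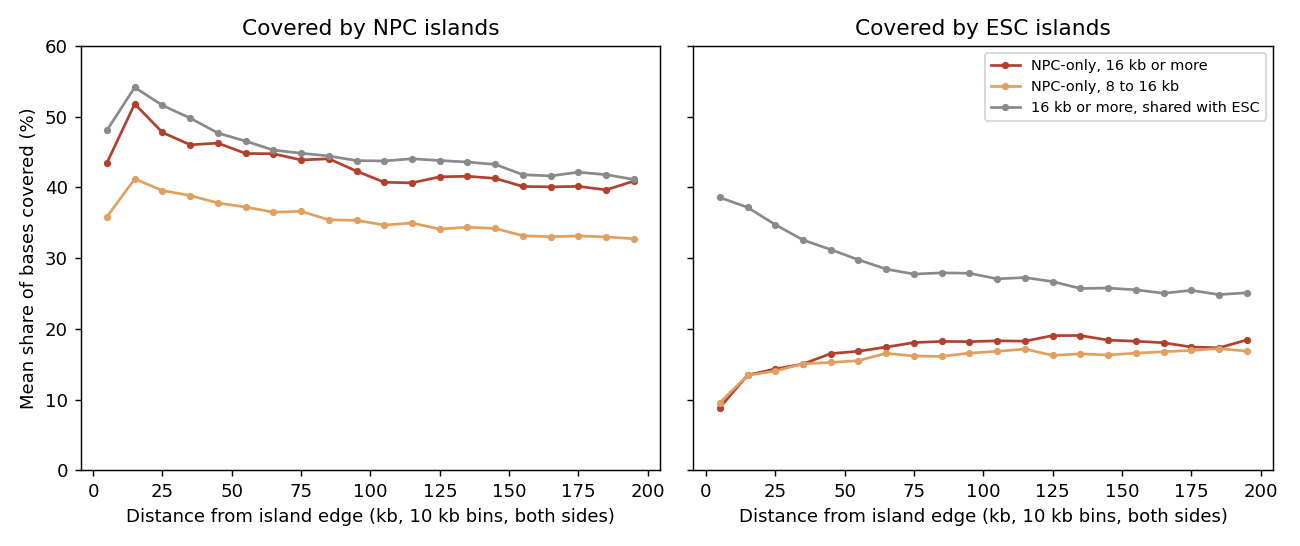
Mean share of bases (%) covered by NPC islands (left) and ESC islands (right) in 10 kb bins out to 200 kb from the island edge, both sides together, for NPC-only islands of at least 16 kb, NPC-only islands of 8 to 16 kb, and NPC islands of at least 16 kb shared with ESC. In the first bin ESC cover is 8.9% for the first set, 9.6% for the second and 38.6% for the shared one, and the curves of the NPC-only sets lie below that of the shared set at every distance drawn.

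Members were seldom isolated NPC islands. The smallest gap that the settings of the caller left between islands was 800 bp, and 418 members (32.3%) had a neighbour at exactly that gap. The median gap to the nearest NPC island was 1.2 kb for members, 1 kb for shared wide islands and 3.2 kb for all NPC islands. A neighbour within 2 kb was found for 835 members (64.5%), against 72.0% of shared wide islands, 55.6% of NPC-only islands of 8 to 16 kb and 43.5% of all NPC islands. These neighbours were seldom shared with ESC: 182 members (14.1%) had an NPC island within 2 kb that shared bases with an ESC island, and so did 13.8% of NPC-only islands of 8 to 16 kb, 19.1% of all NPC islands and 50.9% of shared wide islands. The next NPC island on at least 1 side was a shared one for 506 members (39.1%), and on both sides for 95 (7.34%). For all NPC islands the first of these shares was 52.7%.

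Few members filled most of the stretch between ESC islands in which they lay. The 1295 members fell in 980 ESC-free stretches, of the 21451 that were at least 16 kb long. Those 980 had a median length of 87 kb, with quartiles of 52 and 148 kb, and NPC islands covered a median of 57.9% of their bases. The median length of all stretches of at least 16 kb was 51 kb, and their NPC cover is not given here. A stretch counted among the 980 must hold an NPC island of at least 16 kb. Its length and NPC cover are thus partly set by the rule. A single member filled at least 50% of its stretch in 171 cases (13.2%), and the median was 20.3%. The fullest was a stretch of 53.4 kb on chromosome 6, of which the member at 115890801 to 115942000 took 95.9%, with 5204 reads at 102 reads per kb. On chromosome 12 the member at 87491601 to 87521400 filled 95.5% of 31.2 kb, and on chromosome 4 the member at 154493201 to 154520800 filled 95.2% of 29 kb. These 3 were named after their values were seen. In 777 of the 980 stretches there was 1 member, and in 65 there were 3 or more.

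Members occurred in groups along the chromosomes. Another member lay within 100 kb, edge to edge, for 705 of 1295 (54.4%), and 1378 of the 2062 shared wide islands (66.8%) had another shared wide island as near. Such a share depends on the number of islands in the set, so these shares cannot be compared directly. Joining members at gaps of up to 100 kb gave 849 groups, of which 590 held 1 member, 159 held 2 and 100 held 3 or more. Groups of 3 or more took in 387 members (29.9%). The largest group had 10 members over 489 kb of chromosome 10, from 59785801 to 60274800, with 19054 reads. NPC islands covered 70.2% of that span and 1 ESC island covered 0.41%. Its members were 16 to 36.2 kb wide and had 76.2 to 92.6 reads per kb, the widest with 2985 reads.

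The second group, on chromosome 12 from 113420001 to 113730600, had 9 members within 311 kb and no ESC island among them. All 9 lay in a single ESC-free stretch of 335 kb, the one with the most members, which held 15 NPC islands in all with a median of 84.2 reads per kb. From the first position onward the members had 1437, 1579, 1249, 1965, 1900, 1902, 2107, 1797 and 3047 reads. Their densities stayed between 76.1 and 91.8 reads per kb, and the widths ran from 16 to 34.8 kb, so the narrowest had the fewest reads and the widest the most. The first of them began 0.8 kb after an ESC island ended, and the fifth and sixth were more than 100 kb from any ESC island.

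**Figure D3:**
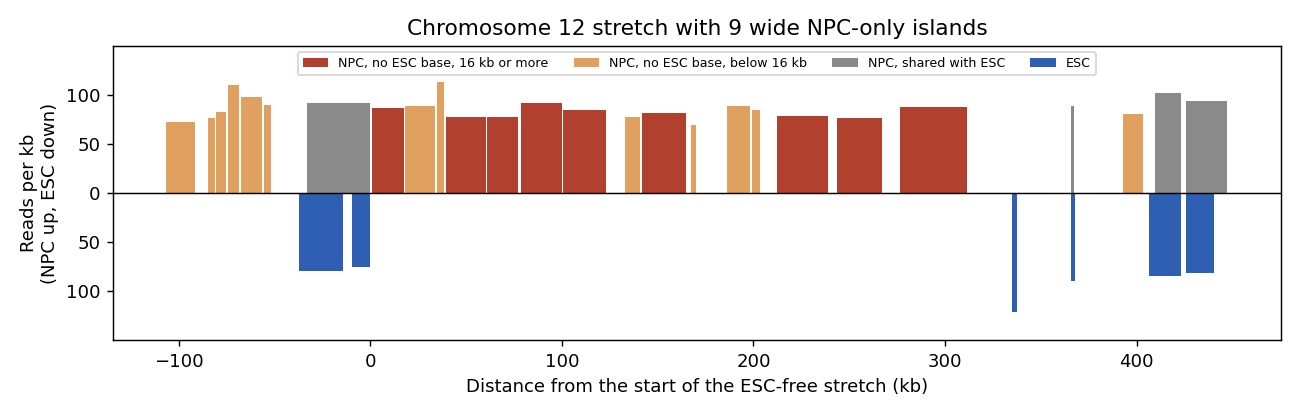
Islands of both lists around the ESC-free stretch of 335 kb on chromosome 12 that holds 9 wide NPC-only islands, with the distance in kb from the start of the stretch on the horizontal axis and density in reads per kb as bar height, NPC upward and ESC downward. Bar widths are island widths. The 9 wide NPC-only islands have 76.1 to 91.8 reads per kb, and ESC islands are drawn only before 0 kb and after 335 kb.

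The other 3 of the 5 largest groups had ESC islands within their span. On chromosome 6, 8 members lay between 118543201 and 119030400, a span of which NPC islands covered 74.3% and 2 ESC islands 3.41%. On chromosome 4, 7 members between 119529201 and 119892400 had 77.3 to 86.4 reads per kb, with NPC cover of 78.0% and ESC cover of 0.55%. On chromosome 15, 7 members between 101030601 and 101389600 had the widest range of density, 68.0 to 108 reads per kb, with NPC cover of 74.2% and ESC cover of 7.69%. The member of that group with the highest density was 43 kb wide and held 4644 reads, at 101178001 to 101221000.

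At the scale of 1 Mb, members lay where ESC islands were plentiful too. Of 2412 windows of 1 Mb with an island of either list, 537 (22.3%) held the centre of a member. NPC islands covered a median of 33.3% and ESC islands 14.9% of the windows with a member, while in the windows without one NPC islands covered 2.54% and ESC islands 2.5%. When windows were ranked by ESC cover and cut into 5 equal groups, from low to high, they held 3, 30, 130, 366 and 766 members. The group with the highest ESC cover thus had 59.2% of the members, and the lowest 0.23%. Shared wide islands were more concentrated, with 81.3% in the highest group. Members made up 31.4% of the wide islands of these 2 kinds in the group with the highest ESC cover, 54.1% in the next and 65.3% in the middle group. Shared islands add their own bases to ESC cover and members cannot, so this order is partly fixed by the rule.

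**Figure D4:**
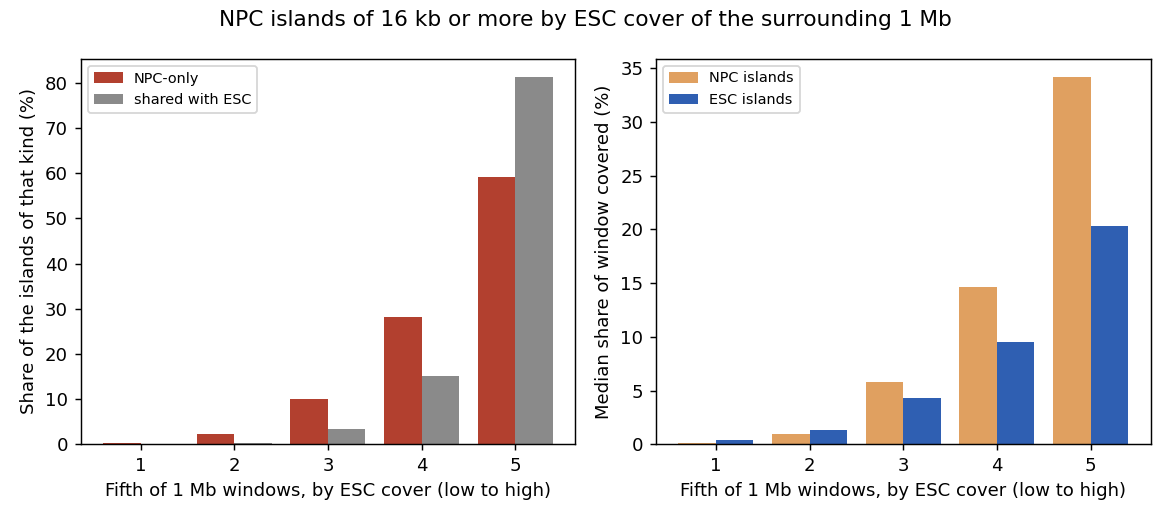
Windows of 1 Mb in 5 groups by ESC cover, from low to high. The left panel gives the share (%) of the 1295 wide NPC-only islands and of the 2062 shared wide islands in each group, and the right panel the median share of the window (%) covered by NPC and by ESC islands. The highest group holds 59.2% of the NPC-only and 81.3% of the shared islands.

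The most members in any window of 1 Mb was 11, a number reached in 4 windows. They were those from 118000001 on chromosome 6, 146000001 on chromosome 7, 101000001 on chromosome 15 and 113000001 on chromosome 12. Members covered 25 to 25.8% of each, NPC islands 53.9 to 66.3% and ESC islands 6.32 to 25.8%. The window on chromosome 6 had the lowest ESC cover of the 4, and held 1 shared wide island beside its 11 members.

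Members were spread unevenly over the chromosomes. Chromosome 11 had the most for its length, 119 members or 9.77 per 10 Mb, and 2.12% of its length lay in them. Chromosome 3 had the fewest, 16 members or 1.003 per 10 Mb, with 0.20% of its length. Over all 19 chromosomes there were 5.24 members per 10 Mb. The most members by number, 138, were on chromosome 4. Chromosomes with more NPC cover had more of their length in members, with a Spearman rho of 0.85 over the 19 chromosomes, which share 1 library. Members are part of that cover, from 3.39% of NPC island bases on chromosome 3 to 14.1% on chromosome 4, so a positive rho is partly built in. For ESC cover, of which members are no part, the rho was 0.61. As a share of wide NPC islands the range was narrower, from 27.6% on chromosome 8 (68 of 246) and 29.5% on chromosome 19 (23 of 78) to 47.9% on chromosome 4 (138 of 288) and 48.3% on chromosome 6 (87 of 180). Chromosome 8 is thus among the lower ones by this share although its 5.16 members per 10 Mb are near the value of all chromosomes. Median member density varied little between chromosomes, from 78.5 reads per kb on chromosome 3 to 83.2 on chromosome 7, and the median width was largest on chromosome 1, at 23.6 kb.

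**Figure D5:**
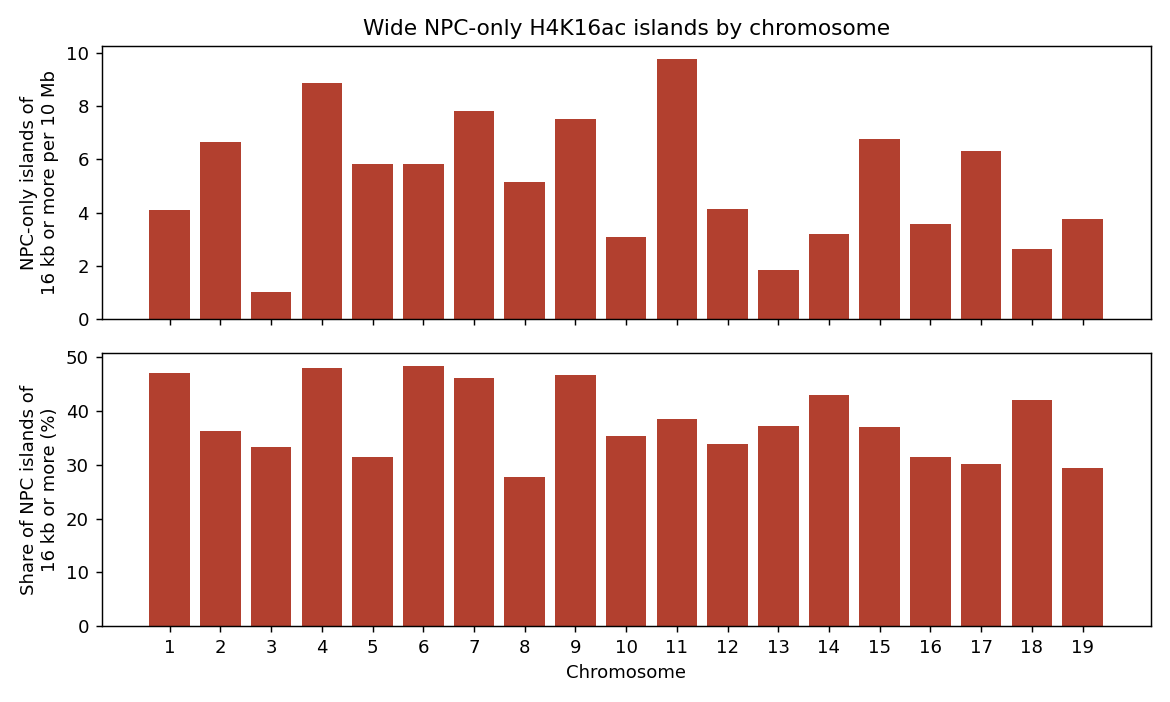
Wide NPC-only islands by chromosome, as number per 10 Mb of length up to the last island (top) and as share (%) of all NPC islands of at least 16 kb (bottom). The top panel runs from 1.003 on chromosome 3 to 9.77 on chromosome 11, and the bottom panel from 27.6% on chromosome 8 to 48.3% on chromosome 6.

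Along the chromosomes, members were more frequent toward the distal end. With each chromosome cut into 10 equal parts from its first to its last island, part 1 held 50 members (3.86%), part 9 held 196 (15.1%) and part 10 held 290 (22.4%). Part 10 held 21.9% of shared wide islands and 15.2% of all NPC islands, and part 1 held 6.98% and 8.17% of these. The share in the last part was therefore close between members and shared wide islands, and above that of all NPC islands in both.

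The mirror image was less frequent among wide islands. Of the 1687 ESC islands of at least 16 kb, 79 (4.68%) shared no base with an NPC island. Of the 3363 NPC islands that wide, 1301 (38.7%) shared none with an ESC island. Fewer than 120 reads per kb were found in 56 of the 79 and in 1295 of the 1301. The share without a shared base was 65.4% over all NPC islands and is not given here over all ESC islands. ESC islands covered 190 Mb of chromosomes 1 to 19 and NPC islands 306 Mb. The part of this unequal cover in the unequal shares was not tested.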

How the data were processed

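Per the submitters' processing notes, the authors worked on mm9 with SICER 1.1, Bowtie 0.12.7 and CASAVA 1.8.2, and also with bedtools 2.10.1 and SAMtools 0.1.7. The deposited lists are named for SICER windows of 200 bp, gaps of 600 bp and a 0.01 false discovery rate. Their only value is a whole number per island, taken here as the authors' read count of the H4K16ac library, with no scaling. Whether duplicates were removed and how the input was used are not given in the sources used here. Positions were moved by 1 to count from 1. Total depth is unknown. Intervals of reads cover counting error only and hold no variation between libraries, since each cell type has 1 ChIP library. Reads that carry no molecular identifier may be copies of a molecule, so these intervals may be too narrow even for counting error.

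Members were found in Python 3.11.15 (numpy 2.4.6, pandas 2.3.3, scipy 1.17.1, matplotlib 3.10.9), and bedtools 2.31.1 gave the same 1295. The interval code was tested on simulated islands. Distances run from edge to edge, and chromosome lengths were taken up to the last island. Regions were named by a rule that took the 5 members with most reads, the 5 widest, densest, least dense, farthest from and nearest to ESC islands, the 3 islands on either side of each threshold, the 5 largest groups, and the chromosomes with most and least of their length in members. Ties in width were ordered by reads. Members, lists and settings were chosen with earlier results of these data known. Sequence and gene content were not run, as no mm9 annotation was used here. Alternatives changed the overlap, the limits on width, density and distance, the ESC islands counted, the merging of NPC islands, and the flank and grouping distances.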

Additional observations from a re-analysis of the deposited data

How the results depend on the processing

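No paired analysis was possible because each cell type has 1 ChIP library, and no library could be left out. Of 53 recomputed values, 24 moved by less than the 95% interval (for the number of members, by less than 1.5 times) and 29 by more. These intervals treat islands as independent draws, except for the share of NPC island reads, where reads are the draws. Every alternative moved that share. The share of wide NPC islands without an ESC island is computed without the density limit, so removing that limit could not move it. What caused the moves was not tested. The unknown depth limits every statement that an ESC island was absent. The planned sequence and gene content gave no value.

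The number of members was 2685 from 12 kb and 342 from 24 kb. The share of wide NPC islands without an ESC island was 41.5% when 10% of the bases had to be shared, 36.6% when 1 kb of distance was required, 44.9% from 12 kb, 28.6% from 24 kb, 42.0% when ESC islands needed the median of 281 reads, and 36.5% with NPC islands merged across 2 kb. Under the same settings the members held 10.6%, 9.25%, 15.9%, 3.78%, 10.6% and 15.7% of NPC island reads, and 10.01% without a density limit. Median density was 79.4 reads per kb from 12 kb, 84.3 from 24 kb and 74.4 with merging, which adds the gaps to the width. The median distance to an ESC island was 13.8 kb with the 10% overlap and 26.7 kb with the read minimum. Median ESC cover of the flanks was 15.05% from 24 kb, 10.05% with the read minimum, 10.1% with merging, 8.6% in 50 kb and 14.7% in 250 kb. Another member lay near 68.2% of members from 12 kb, 28.7% from 24 kb, 42.0% within 50 kb and 71.1% within 250 kb.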
